A study of Mus musculus with 3 samples.

Results

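The miRNAs miR-486, miR-451a and miR-144 are the classical small RNAs of red blood cells. They were followed here as 5 named entries, miR-486a-5p, miR-486b-5p, miR-451a, miR-144-3p and miR-144-5p, out of 1915 mature miRNAs counted in each of 3 mouse small-RNA sequencing libraries. The entries were matched by name, and they were chosen with earlier results of these data known. miR-486a-5p and miR-486b-5p had identical counts in every library and were treated as 1, which left 4 members. The first library held exosomes of B16 cells, a melanoma line labelled as strain C57BL/6J. The second held exosomes of JB6 cells, a skin line of strain BALB/c given as normal in the labels. The third held the B16 cells themselves. Exosomes, small vesicles that cells shed into the medium, had been collected by ultracentrifugation, and no treatment is named in the labels. Each group held 1 library of a cultured line, so no difference below has a replicate check, and between the exosome libraries the line, its strain and its disease state all changed at once.

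A miRNA is a short RNA that guides an Argonaute protein to messenger RNAs that match its seed, which is bases 2 to 8. miR-144 and miR-451a are cut from a common transcript that the red-cell factor GATA1 switches on, and miR-451a is unusual because Argonaute 2, rather than Dicer, trims its short hairpin. miR-451a protects red cells against oxidative stress by lowering Ywhaz. miR-486 comes from the locus of Ank1, the gene of a red-cell and muscle membrane anchor.

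In the mouse build GRCm38 the Mir144 hairpin lies at chr11:78073005-78073070 on the plus strand. Mir451a follows 99 bases further on at chr11:78073170-78073241, also on the plus strand. Neither overlaps a host gene in the GENCODE M21 annotation, and the nearest protein-coding gene is Eral1. Mir451b is annotated at the coordinates of Mir451a on the minus strand. The hairpin of miR-486a, Mir486, lies at chr8:23142555-23142682 on the plus strand in an intron of Ank1. That of miR-486b, Mir3107, lies inside it at chr8:23142573-23142662 on the minus strand. The use of strand and the handling of multiply matching reads in counting are not given in these sources. Reads of miR-486a-5p and miR-486b-5p may therefore not have been told apart. Identical counts were not particular to this pair, since 206 listed entries in 56 sets had the same counts in every library. These sets take in entries with few reads, such as miR-144-3p and miR-344-3p, each listed only in JB6 exosomes with 20 reads. A tie at a high count was seen for miR-199a-3p and miR-199b-3p, each with 9276 reads in JB6 exosomes. How common ties are at counts as high as those of miR-486 was not tested. The mature miR-451a and miR-451b occupy separate stretches of their common hairpin site.

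The mature sequences of the Mir144 and Mir451a members, from RefSeq (GRCm38.p6, which held 3 of the 5 named entries), are shown 5′ to 3′ with the seed in capitals, because the members share a name as red-cell miRNAs but not a seed. miR-101a-3p, a broadly expressed miRNA, is added as the closest relative of miR-144-3p in the lists used.
miR-451a: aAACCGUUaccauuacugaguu
miR-144-3p: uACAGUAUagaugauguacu
miR-144-5p: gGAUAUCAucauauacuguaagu
miR-101a-3p: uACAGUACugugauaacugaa
No other of 1622 mature miRNAs searched had the seed of miR-451a, of miR-144-3p or of miR-144-5p. Over the first 8 bases, counted from the 5′ end, miR-144-3p and miR-101a-3p had 7 in common and differed by U8C (miR-144-3p first).

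The hairpins are shown with the mature miRNAs in capitals, since they show how miR-451a differs in origin from its neighbour.
Mir451a: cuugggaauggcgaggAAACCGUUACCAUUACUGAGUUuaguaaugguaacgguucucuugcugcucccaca
Mir144: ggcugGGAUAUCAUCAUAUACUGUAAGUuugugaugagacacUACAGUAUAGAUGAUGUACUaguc
In the predicted fold (RNAfold) the 22 bases of miR-451a took 18 bases of the 5′ stem and the 4 bases of the loop. In Mir144 the mature arms lay wholly in the stem on either side of the loop. miR-144-5p and miR-144-3p are thus the usual pair of arms, while miR-451a has no partner arm in the files.

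The libraries differed widely in depth, with 45677 miRNA reads in B16 exosomes, 4495956 in JB6 exosomes and 7925726 in B16 cells. No file listed a count from 1 to 9. Behind a listed 0 there may be up to 9 reads, or 197 reads per 1000000 miRNA reads (RPM) in B16 exosomes, 2.002 RPM in JB6 exosomes and 1.14 RPM in B16 cells. Of 2 melanocyte miRNAs, miR-211-5p had 83 reads in B16 exosomes, a listed 0 in JB6 exosomes and 21080 reads in B16 cells. The other, miR-204-5p, had a listed 0 in B16 exosomes, 14 reads in JB6 exosomes and 60 reads in B16 cells. Of 7 epithelial miRNAs, 2 were listed in JB6 exosomes, miR-200b-3p with 22 reads and miR-203-3p with 13, where 389 of all 1915 entries were listed. In B16 cells 4 of the 7 were listed, with a sum of 24.9 RPM against 7.78 RPM in JB6 exosomes. miR-205-5p was at 0 in all 3 libraries. The epithelial markers were thus at or near 0 in the vesicles of the line labelled as skin, and the cells of that line were not sequenced.

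miR-486 was by far the most frequent member, and its level was highest in JB6 exosomes. miR-486a-5p had a listed 0 in B16 exosomes, 32994 reads in JB6 exosomes and 153 reads in B16 cells. As a level this was at most 197 RPM in B16 exosomes, 7339 RPM in JB6 exosomes (exact 95% interval 7260 to 7418) and 19.3 RPM in B16 cells (16.4 to 22.6). The JB6 exosome level stood above both B16 libraries. It ranked 23 among 389 listed miRNAs in JB6 exosomes, where it took 0.734% of the reads, and 278 among 559 in B16 cells. In JB6 exosomes it lay between miR-1198-5p with 33803 reads and miR-125b-1-3p with 31850, each different from it beyond counting error. In B16 cells its neighbours in the order, miR-760-3p with 155 reads and miR-322-5p with 150, were not told apart from it. A share of reads does not tell more vesicles or cells that carry a miRNA from more copies in each, and the intervals cover counting error only, since no molecular identifiers are reported and reads need not be separate molecules.

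miR-451a was second. It had a listed 0 in B16 exosomes, 606 reads in JB6 exosomes and 13 reads in B16 cells, or 135 RPM in JB6 exosomes (124 to 146) and 1.64 RPM in B16 cells (0.873 to 2.80). It ranked 111 of 389 in JB6 exosomes and 513 of 559, near the bottom of the listed entries, in B16 cells. miR-495-3p with 612 reads and miR-145a-3p with 605 stood next to it in JB6 exosomes and did not differ from it beyond counting error. miR-451b, from the opposite strand, was at 0 in all 3 libraries.

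miR-144 was at the edge of what the files list. miR-144-3p, the guide strand, was at 0 in B16 exosomes, had 20 reads in JB6 exosomes and was at 0 in B16 cells. Its JB6 exosome level was 4.45 RPM (2.72 to 6.87), at rank 313 of 389. miR-144-5p, the other arm, was at 0 in all 3 libraries, which allows up to 2.002 RPM in JB6 exosomes. The ratio of the arms in JB6 exosomes was at least 2.22, with an interval that held 1, so the balance of the arms could not be resolved at this depth.

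**Figure D1:**
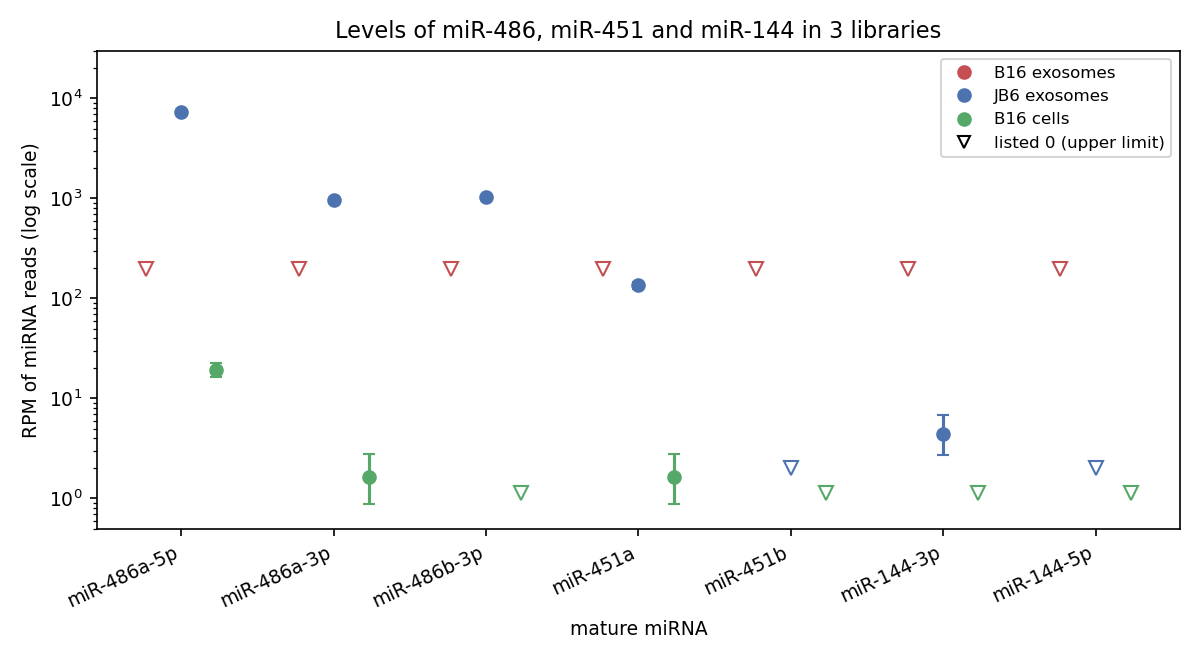
Level of each member and of the other arms and neighbours of miR-486 and miR-451 in RPM of miRNA reads on a log axis, in B16 exosomes, JB6 exosomes and B16 cells (1 library each). Points are levels with exact 95% counting intervals, and open triangles are upper limits where the file lists 0; miR-486a-5p reaches 7339 RPM in JB6 exosomes, while every B16 exosome value is an upper limit of 197 RPM.

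The 3p arms of miR-486, which were no members, were also highest in JB6 exosomes. miR-486a-3p had a listed 0 in B16 exosomes, 4296 reads in JB6 exosomes and 13 reads in B16 cells. miR-486b-3p had a listed 0 in B16 exosomes, 4613 reads in JB6 exosomes and 0 in B16 cells. The 3p entries thus had different counts, unlike the 5p entries, with miR-486b-3p over miR-486a-3p at 1.07 in JB6 exosomes (1.03 to 1.12). That interval takes their reads as separate, which the sources do not state. Reads of miR-486a-3p came to 13.02% of those of miR-486a-5p in JB6 exosomes (12.6 to 13.4) and 8.50% in B16 cells (4.42 to 14.97). That balance did not differ between JB6 exosomes and B16 cells beyond counting error, with a ratio of 1.53 (0.869 to 2.95). Among 65 hairpins with at least 1000 reads on the stronger arm in JB6 exosomes, the weaker arm was listed in 42 and at 0 in 23. With 9 reads for each listed 0, the weaker arm had a median of at most 0.331% of the stronger, and miR-486b and miR-486a, which share their 5p count, ranked 5 and 6 from the highest.

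JB6 exosomes were set against B16 cells first, since these are the deep libraries. The labels pair vesicles of a normal line with cells of a tumour line here, so the comparison crosses both cell line and compartment. Both members with enough reads were far higher in JB6 exosomes. miR-486a-5p was 380.2-fold higher in JB6 exosomes (324 to 449), with a log2 ratio of 8.57. miR-451a was 82.2-fold higher (47.7 to 155), with a log2 ratio of 6.36. Called higher here means a ratio of at least 2-fold between shares of miRNA reads with an interval that excludes 1, for miRNAs that had at least 30 reads in the pair. Of the 4 members, 2 passed that minimum and both were higher. miR-451a, with 13 reads in B16 cells, passed only through its JB6 exosome reads, so this count depends in part on the filter. Of all 501 miRNAs tested 26.1% were higher, 60.7% lower, 11% neither and 2.2% not resolved. The median log2 ratio of all was -1.75. Only 12 other entries, miR-486b-5p among them, had a ratio as high as that of miR-486a-5p or higher, and miR-451a ranked 23. Both calls held under 4 other scalings, by TMM, by DESeq2's median of ratios, by totals trimmed of the 10 commonest miRNAs of each library, and by the totals behind the authors' own RPM. The ratios ran from 334 to 2272 for miR-486a-5p and from 72.3 to 491 for miR-451a over the alternatives tried.

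miR-144-3p, with 20 reads in all, was below the minimum of 30. With a minimum of 10 reads it was at least 3.92-fold higher in JB6 exosomes than in B16 cells, taking 9 reads for the listed 0, and the interval limit nearest to 1 was 1.71-fold. At that minimum 23.4% of 640 miRNAs were higher, a share that includes miRNAs listed in both libraries. miR-144-3p passed only through its JB6 exosome reads. With a listed 0 in B16 cells it could be called only higher or not resolved, so its direction was not tested. miR-144-5p could not be compared. Of the 3p arms, miR-486a-3p was 583-fold higher (340.3 to 1095) and miR-486b-3p at least 904-fold higher, with an interval limit of 476-fold. Both passed the minimum of 30 only through their JB6 exosome reads. miR-486b-3p, with a listed 0 in B16 cells, could not have been called lower.

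**Figure D2:**
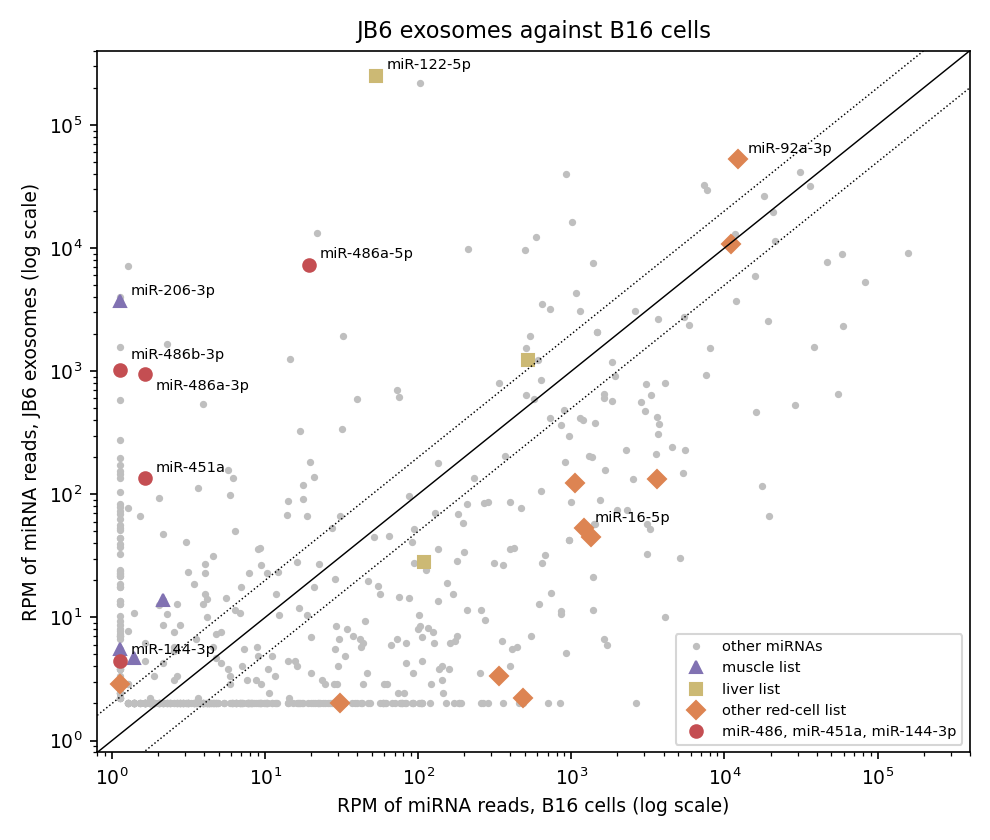
Level of every miRNA listed in JB6 exosomes (vertical) or B16 cells (horizontal), in RPM of miRNA reads on log axes, with a listed 0 drawn at 9 reads. The solid line marks equal shares and the dotted lines 2-fold; miR-486a-5p, miR-486a-3p, miR-486b-3p and miR-451a lie far above the upper dotted line, as do miR-122-5p and miR-206-3p, whereas miR-16-5p lies below the lower one.

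Ratios between miRNAs of the same library do not depend on how libraries are scaled. miR-486a-5p had 54.4 reads for each read of miR-451a in JB6 exosomes (50.2 to 59.1) and 11.8 in B16 cells (6.68 to 22.6). The excess of miR-486a-5p over miR-451a was therefore 4.63-fold greater in JB6 exosomes (2.39 to 8.21). miR-451a in turn had 30.3 reads for each read of its transcript neighbour miR-144-3p in JB6 exosomes (19.4 to 49.96). The 3 listed members were thus spread over widely different levels within that library. Set against miR-16-5p, a widely expressed brake on the cell cycle that is also abundant in red cells, miR-486a-5p had a ratio of 139 in JB6 exosomes (122 to 158) and 0.0160 in B16 cells (0.0136 to 0.0188). In B16 exosomes, with 123 reads of miR-16-5p and a listed 0 for miR-486a-5p, the ratio was at most 0.0732, taking 9 reads. For miR-451a over miR-16-5p the ratio was 2.55 in JB6 exosomes (2.19 to 2.97) and 0.00136 in B16 cells (0.000724 to 0.00233). Against the liver and muscle miRNAs the order was the other way round. miR-486a-5p over miR-122-5p was 0.0292 in JB6 exosomes and 0.363 in B16 cells, with separate intervals. miR-486a-5p over miR-206-3p was 1.99 in JB6 exosomes (1.95 to 2.02) and at least 17.0 in B16 cells, where miR-206-3p was listed at 0, with an interval limit of 8.72.

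**Figure D3:**
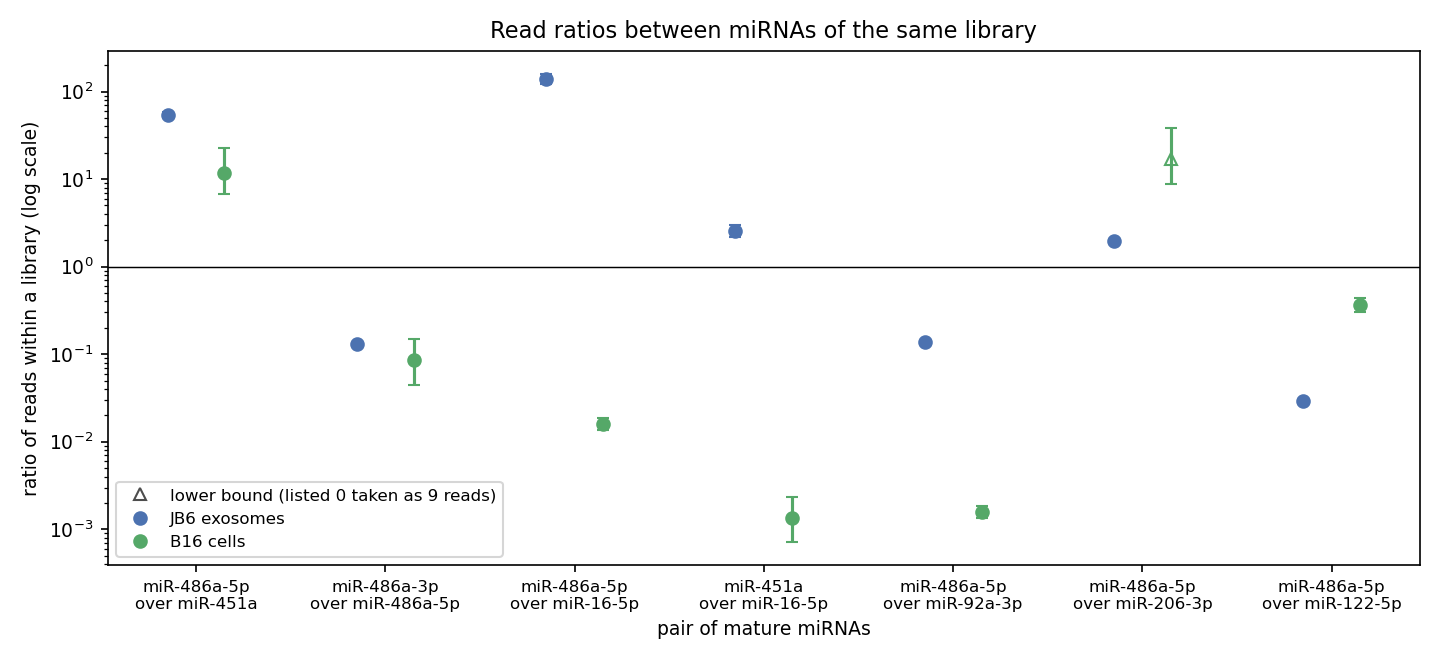
Read ratio of pairs of miRNAs within the same library on a log axis, for JB6 exosomes and B16 cells, with exact 95% counting intervals. The open triangle is a lower bound, with a listed 0 taken as 9 reads. The JB6 exosome ratio is higher than that of B16 cells with separate intervals for miR-486a-5p over miR-451a, miR-16-5p and miR-92a-3p and for miR-451a over miR-16-5p, lower for miR-486a-5p over miR-206-3p and miR-122-5p, and not told apart for miR-486a-3p over miR-486a-5p.

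Other miRNAs abundant in red cells were mostly lower in JB6 exosomes than in B16 cells, as were most miRNAs tested. Of 10 in the list, 9 had enough reads over the pair. In JB6 exosomes 7 were lower, 1 was higher and 1 was neither, where 60.7% of all 501 tested were lower and 26.1% higher. miR-15a-5p, miR-15b-5p and miR-106b-5p passed the minimum only through their B16 cell reads, so this count depends in part on the filter. miR-15a-5p, with a listed 0 in JB6 exosomes and 246 reads in B16 cells, could not have been called higher. Their median log2 ratio was -4.51, against -1.75 for all miRNAs tested. miR-16-5p had 238 reads in JB6 exosomes and 9558 in B16 cells and was 22.8-fold lower (20.03 to 26.02). Of its cluster and seed relatives, miR-15b-5p, with 10 reads in JB6 exosomes and 3848 in B16 cells, was 218-fold lower (119 to 456). miR-93-5p and miR-106b-5p, growth-promoting miRNAs of one cluster with miR-25, were 27.04-fold (24.9 to 29.4) and 100.7-fold (60.9 to 180.1) lower. miR-25-3p, of that same cluster, had a ratio of 0.987 (0.977 to 0.998), within the 2-fold rule. miR-92a-3p, of the miR-17-92 cluster and abundant in red cells, was the higher one at 4.33-fold (4.29 to 4.36), with 237054 reads in JB6 exosomes and 96572 in B16 cells. 6 of the 7 lower calls held under the 4 other scalings, and that of miR-185-5p was lost under DESeq2 factors.

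A further list held 6 miRNAs known to decline as red cells mature, such as miR-221-3p and miR-222-3p, which hold back the growth-factor receptor Kit. Of 5 tested, 3 were higher in JB6 exosomes and 2 lower, where 26.1% of all 501 tested were higher and 60.7% lower. The higher call with the fewest reads was miR-150-5p, with 35 reads in JB6 exosomes and 10 in B16 cells. miR-150-5p and miR-155-5p are also in the leukocyte and platelet list below, so their calls count in both lists. miR-222-3p had 3148 reads in JB6 exosomes and 577 in B16 cells and was 9.62-fold higher (8.80 to 10.5). miR-221-3p was 2.38-fold higher (2.26 to 2.50), with 3614 reads in JB6 exosomes and 2679 in B16 cells. The 2 lower calls, miR-24-3p and miR-155-5p, were lost under TMM, DESeq2 and trimmed totals and turned to higher under DESeq2.

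Markers of other tissues were read beside the members. Of 7 muscle miRNAs, 0 were listed in B16 exosomes, 4 in JB6 exosomes with a sum of 3720 RPM and 2 in B16 cells with a sum of 3.53 RPM, while miR-133b-3p, miR-208a-3p and miR-208b-3p were at 0 throughout. miR-206-3p, a skeletal-muscle miRNA, made up nearly all of it, with a listed 0 in B16 exosomes, 16619 reads in JB6 exosomes and 0 in B16 cells. miR-1a-3p, the more general muscle miRNA, had 21 reads in JB6 exosomes and 11 in B16 cells. Since miR-486 is also a muscle miRNA, the part of muscle-type RNA in its level was not tested.

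Of 3 liver miRNAs the sum was 963 RPM in B16 exosomes, 252480 RPM in JB6 exosomes and 686 RPM in B16 cells. miR-122-5p, the main miRNA of hepatocytes, made up nearly all of the JB6 exosome sum, with 251231 RPM. It was 4730-fold higher in JB6 exosomes than in B16 cells (4299 to 5216). miR-192-5p was 2.34-fold higher (2.24 to 2.43), and both calls held under all 4 other scalings. miR-194-5p was 3.89-fold lower (3.22 to 4.72), a call that was lost under TMM and DESeq2. For 8 leukocyte and platelet miRNAs the sum was 4838 RPM in B16 exosomes, 1221 RPM in JB6 exosomes and 4358 RPM in B16 cells. miR-146a-5p and miR-126a-3p made up most of each sum, with 3963 and 876 RPM in B16 exosomes. They had 779 and 404 RPM in JB6 exosomes and 3075 and 1190 RPM in B16 cells. Of the 8, 2 were listed in B16 exosomes, 7 in JB6 exosomes and 5 in B16 cells. Of all 1915 entries 149, 389 and 559 were listed there, in that order. miR-223-3p, the myeloid and platelet marker, was at 0 in all 3 libraries, and miR-142a-3p, found across blood-forming cells, was at 0 in B16 exosomes, had 22 reads in JB6 exosomes and was at 0 in B16 cells. By the rule 1 of 5 in that list was higher in JB6 exosomes than in B16 cells and 4 were lower. Of all 501 miRNAs tested 26.1% were higher and 60.7% lower, so most miRNAs lay on that same side. Of the 4 lower calls, 3 were lost under TMM and under DESeq2, and miR-126a-3p and miR-155-5p turned to higher under DESeq2. The part of other tissues' RNA in the levels of the members was not tested.

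**Figure D4:**
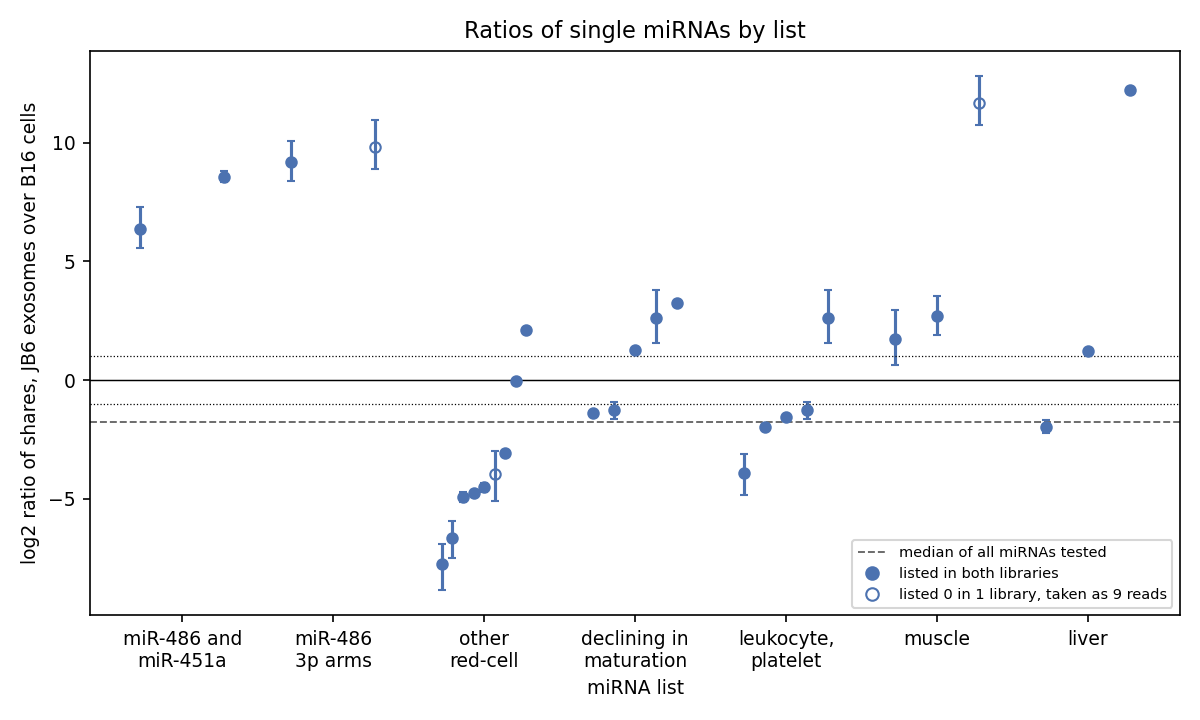
Log2 ratio of shares, JB6 exosomes over B16 cells, for each tested miRNA of 7 lists, with exact 95% counting intervals. Open circles rest on a listed 0 taken as 9 reads, the dashed line is the median of all 501 miRNAs tested (-1.75), and the dotted lines mark 2-fold; miR-486a-5p and miR-451a lie at 8.57 and 6.36, while 7 of 9 other red-cell miRNAs lie below the lower dotted line.

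The B16 exosome library was next compared with that of JB6 exosomes, to compare the vesicles of a tumour line and a normal line. The JB6 exosome library is shared with the comparison above. miR-486a-5p, with a listed 0 in B16 exosomes and 32994 reads in JB6 exosomes, was at least 37.2-fold lower in B16 exosomes, and the interval limit nearest to 1 was 19.6-fold. At the JB6 exosome share the B16 exosome library would have held 335 reads of it. Of 24 entries with at least as many reads in JB6 exosomes, 3 were listed at 0 in B16 exosomes, and these were miR-486a-5p, miR-486b-5p and miR-615-3p. The 3p arms, also with a listed 0 in B16 exosomes, met the rule as lower. The bounds were at least 4.85-fold for miR-486a-3p and 5.21-fold for miR-486b-3p, with interval limits of 2.55-fold and 2.74-fold. At the JB6 exosome share 43.6 and 46.9 reads were foreseen. Both arms passed the minimum of reads only through JB6 exosomes, so neither could have been called higher.

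miR-451a could not be resolved between the exosome libraries. At the JB6 exosome share the B16 exosome library would have held 6.16 reads of it, below the smallest listed count of 10, and for miR-144-3p 0.203 reads. A listed 0 in B16 exosomes thus said little about either. miR-451a met the rule as lower under TMM, DESeq2 and the authors' totals, at least 3.53-fold, 4.46-fold and 10.1-fold, where every B16 exosome level is scaled down. Of the 4 members, 2 passed the minimum of reads, of which 1 was lower and 1 not resolved. Both had a listed 0 in B16 exosomes and passed only through JB6 exosomes, so neither could have been called higher. Over all 300 miRNAs tested 11.7% were lower, 31.3% higher, 8.33% neither and 48.7% not resolved.

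Of the other red-cell miRNAs, 7 were tested in that comparison and all 7 were listed in both libraries. In B16 exosomes 5 were higher, 1 was lower and 1 was neither, with a median log2 ratio of 4.39. Of all 131 miRNAs listed in both libraries 67.2% were higher and 13.7% lower, with a median of 2.62, so the count of this list was near the general share. miR-16-5p, with 123 reads in B16 exosomes and 238 in JB6 exosomes, was 50.9-fold higher. miR-92a-3p, with 412 reads in B16 exosomes and 237054 in JB6 exosomes, was lower, at a ratio of 0.171. The higher calls of miR-16-5p and miR-106b-5p and the lower call of miR-92a-3p held under all 4 other scalings, while under the authors' totals 2 of the 7 were higher and 3 lower.

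B16 exosomes against B16 cells gave no call for any member, and 1 of the 4 passed the minimum of reads. miR-486a-5p had a listed 0 in the exosomes and 153 reads in the cells, and at the cell share the exosome library would have held 0.882 reads. A level in B16 exosomes anywhere from 0 to 197 RPM, which is 10.2 times the cell level, was compatible with the file. miR-451a, with 13 reads in the cells, was under the minimum. Of 422 miRNAs tested in that comparison, 63.3% were likewise not resolved, 8.53% were higher, 7.82% lower and 20.4% neither.

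The miRNAs with the most similar pattern were found by the distance in log2 RPM over the 3 libraries, with a listed 0 taken as 9 reads. For miR-486a-5p the nearest of 642 was miR-615-3p, a miRNA of the Hoxc5 locus, with a listed 0 in B16 exosomes, 59466 reads in JB6 exosomes and 173 in B16 cells, at a distance of 0.87. miR-125a-3p followed at 2.05, with 8731 reads in JB6 exosomes and 255 in B16 cells, and then miR-127-3p at 3.16, miR-409-3p at 3.76 and miR-34b-3p at 3.77. Of these 5, only miR-615-3p lay within 1 log2 unit of miR-486a-5p.

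For miR-451a the 5 nearest lay within 0.64. They were miR-495-3p at 0.53, miR-382-5p at 0.54, miR-3095-3p at 0.57, miR-344d-3p at 0.60 and miR-485-5p at 0.64. These had none listed in B16 exosomes and 421 to 777 reads in JB6 exosomes, and in B16 cells only miR-344d-3p was listed, with 16 reads. For miR-144-3p the nearest, miR-344-3p, was at 0 in B16 exosomes, had the same 20 reads in JB6 exosomes and was at 0 in B16 cells.

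miR-101a-3p and miR-101b-3p, the relatives of miR-144-3p, were common where miR-144-3p was not listed. miR-101a-3p had 50 reads in B16 exosomes, 828 in JB6 exosomes and 7248 in B16 cells. It was 4.97-fold lower in JB6 exosomes than in B16 cells (4.62 to 5.34), and that call was lost under TMM and DESeq2. miR-101b-3p had 61 reads in B16 exosomes, 258 in JB6 exosomes and 11058 in B16 cells and was, in JB6 exosomes against B16 cells, 24.3-fold lower (21.5 to 27.6), under all 4 other scalings as well.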

How the data were processed

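Small RNA was sequenced from 3 sources (1 library each). Exosomes were collected, per the labels' protocols, by ultracentrifugation and RNA was taken with Trizol. Per the submitters' processing notes bcl2fastq and BWA were used with the build mm10. Their versions and the handling of strand and of multiply matching reads are not stated there. The authors deposited a raw count of reads per mature miRNA, with no count from 1 to 9. They also deposited a normalized RPM value, which equals the count times a constant in each file and rests on a larger total than the miRNA reads, of unstated content. RPM in the report is instead per 1000000 miRNA reads.

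From the counts, the ratio of shares was computed for all miRNAs with 30 or more reads over a pair, with exact (Clopper-Pearson, conditional binomial) 95% intervals, using Python 3.11.15 and scipy 1.17.1. A listed 0 was set to 9 reads and gives a bound. A miRNA was called at 2-fold or more with an interval that excluded 1, and a bound that missed the rule was called not resolved. No test across libraries was possible. The calculation was tested on simulated data. Alternative scalings came from edgeR 4.0.16 (TMM), DESeq2 1.42.0, totals without the 10 most abundant miRNAs of each library ("trimmed") and the totals behind the authors' RPM. Hairpins were folded with RNAfold 2.7.2. Sequences came from RefSeq and locations from GENCODE M21.

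The members, the 10 lists and the tests were chosen with earlier results of these data known. Named miRNAs were the members, up to 4 of the most abundant of each list in full, other listed entries by their counts, and the 5 nearest to each member. Neighbours in the order of levels lie outside that rule and were named by their rank.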

Additional observations from a re-analysis of the deposited data

How the results depend on the processing

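The higher calls of miR-486a-5p and miR-451a in JB6 exosomes over B16 cells, and the lower call of miR-486a-5p in B16 exosomes against JB6 exosomes, kept their direction and met the rule under all 10 alternatives tried for each. Not all of these could alter the calls. Minimums of 0, 10 or 100 reads left the ratios as they were. Another value for a listed 0 had no bearing where both libraries listed the miRNA. The bound for miR-486a-5p between the exosome libraries ran from at least 37.2-fold to at least 552-fold lower. miR-451a, not resolved between the exosome libraries, was called lower under TMM (log2 ratio -1.82), DESeq2 factors (-2.16) and the authors' totals (-3.34), which shift every log2 ratio of that comparison by -2.37, -2.70 and -3.89. For JB6 exosomes over B16 cells the shifts were 1.35 with TMM, 2.58 with DESeq2, 0.67 with trimmed totals and -0.19 with the authors' totals, and for B16 exosomes over B16 cells -1.02, -0.13, 0.06 and -4.08.

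The background counts depended on scaling. Between the exosome libraries 94 higher and 35 lower became 61 and 97 with TMM, 57 and 109 with DESeq2, and 40 and 153 with the authors' totals. For B16 exosomes over B16 cells 36 and 33 became 16 and 93 with TMM, 9 and 257 with the authors' totals, and 23 and 14 where the interval bound itself had to reach 2-fold. For JB6 exosomes over B16 cells 131 and 304 became 204 and 134 with DESeq2, and 202 were lower with TMM. Per 1000000 of the authors' totals, JB6 exosomes had 5864 of miR-486a-5p and 107.7 of miR-451a. If the authors had split reads between miR-486a-5p and miR-486b-5p, their sum over miR-451a would be 108.9 in JB6 exosomes and 23.5 in B16 cells. The cause of these changes was not tested.

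No paired analysis was possible because each group held 1 library. The depth of B16 exosomes, where 9 unlisted reads equal 197 RPM, is what limits every statement on miR-451a and miR-144 in that library.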

Other observations

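The few reads in B16 cells were set against those in JB6 exosomes. Among the members, the B16 cell reads came to 0.464% of the JB6 exosome reads for miR-486a-5p (0.393 to 0.544) and 2.15% for miR-451a (1.14 to 3.70), with separate intervals. For the 3p arms they came to 0.303% for miR-486a-3p (0.161 to 0.518), which overlaps the interval of miR-486a-5p, and to at most 0.195% for miR-486b-3p, taking 9 reads for its listed 0. For miR-122-5p the figure was 0.0373% (0.0338 to 0.0410), and for miR-206-3p, with a listed 0 in B16 cells, it was at most 0.0542%, taking 9 reads. How these reads came to be in the B16 cell library was not tested.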
